A study of Mus musculus with 50 samples.

Results

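Transcripts of 10 receptor genes were examined in single iRunx1-iHECs, chosen by name from the table of expression values: Kit, Procr, Epor, Csf1r, Csf2rb, Il6st, Flt3, Il3ra, Ifngr1 and Tnfrsf1a. All 10 had a row among the 11879 gene rows. The data held 50 single mouse cells of 1 group and no second group. They were induced hemogenic endothelial cells grown from C57BL/6 embryonic stem cells that carried a doxycycline-inducible Runx1 cassette in the Rosa26 locus, and every cell carried that cassette. Cells were sorted as CD31+CD41lowCD45-c-kit+CD201high, so the proteins of Kit (c-kit) and Procr (CD201) were used to choose them and their high shares below are no finding. Before the sort the cultures had received conditioned medium holding mouse SCF (stem cell factor), mouse IL-3, mouse IL-6 and human Flt3 ligand, together with doxycycline. No animal, culture or clone is named for single cells, so the 50 cells are 1 sample, and no test over replicates was made.

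Cytokine receptors fall into a few structural classes. Kit, Csf1r and Flt3 are related receptor tyrosine kinases that signal by themselves once their ligands, SCF, CSF-1 and Flt3 ligand, bring a pair of chains together. Epor, Csf2rb, Il3ra and Il6st belong to the receptors that have no kinase of their own and signal through Jak kinases and Stat factors, as does Ifngr1, the binding chain for interferon gamma. Il3ra needs the shared chain Csf2rb, or its mouse-specific relative Csf2rb2, to form a signalling IL-3 receptor, and Il6st (gp130) is the shared chain of the IL-6 family. Tnfrsf1a is a death domain receptor for tumor necrosis factor. Procr, the endothelial protein C receptor, binds protein C and marks emerging and adult hematopoietic stem cells. Kit is a marker of hemogenic endothelium and of hematopoietic progenitors.

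The expression values were TPM, in which each transcript is scaled for its length and each cell to the same total, so that levels can be compared between genes. A gene was counted as present in a cell at TPM above 1. Of the 10 receptor genes, 5 were present in at least 90% of the cells, while 19% of all rows were. A further 2 were present in 50% to 90% of cells, and in all 7 reached at least 50% of cells, a level reached by 53.2% of all rows. The other 3, Epor, Csf1r and Flt3, were present in fewer than 20% of cells, as were 23.4% of all rows. The median share over the 10 genes was 77%, beside 52% over all rows. Without Kit and Procr, whose proteins the sort used, the median over the other 8 was 58% and 3 of them reached 90% of cells. A median level above 100 TPM was reached by 4 of the 10, Procr, Csf2rb, Ifngr1 and Tnfrsf1a, and by 13.2% of all rows.

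Each cell had between 2400 and 8615 genes above TPM 1, with a median of 6224, and sequencing depth cannot be read from TPM. Cell 4-6, named by the 2 numbers of its title, had the fewest genes and the next had 4326. All 10 endothelial markers were present in at least 90% of cells, beside 19% of all rows, with Esam (516), Cldn5 (484) and Eng (345) at the highest median TPM. Of 13 hemogenic and blood markers, 6 were present in at least 50% of cells, beside 53.2% of all rows. Runx1 (132), Lyl1 (46) and Itga2b (43) had the highest median TPM, where transcripts of the Runx1 cassette and of the Runx1 gene itself cannot be told apart, and Ptprc, Spn and Myb were listed at 0 in all cells. The endothelial part of the label was thus seen in the markers, and the transcript of CD45, the protein the sort left out, was at 0.

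**Figure D1:**
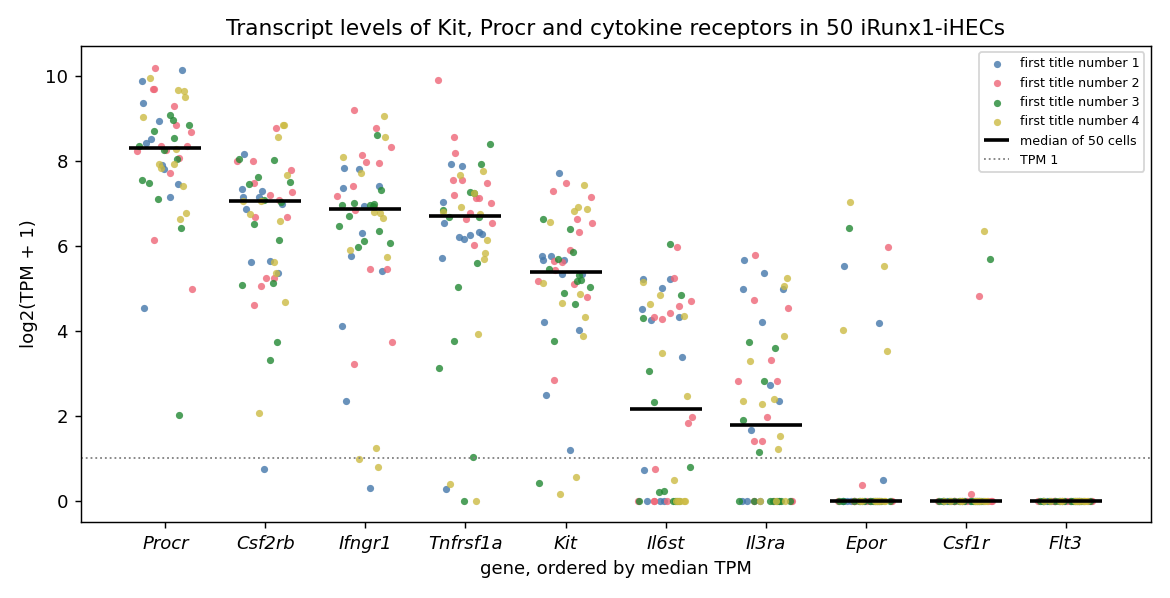
Level of each receptor gene in the 50 cells as log2(TPM + 1); 1 point is 1 cell, colors give the first title number, black bars the median over cells and the dotted line TPM 1. Procr, Csf2rb, Ifngr1, Tnfrsf1a and Kit form a broad group with medians from 314 to 40.8 TPM, Il6st and Il3ra split the cells, and Epor, Csf1r and Flt3 lie at 0 in most or all cells.

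Procr (Ensembl ENSMUSG00000027611.12; GRCm38 chromosome 2, 155751117 to 155755471, plus strand) was the most abundant of the 10. Its level ran from 3.05 TPM in cell 3-15, over a median of 314, to 1167 TPM, and it passed TPM 1 in 50 of 50 cells (95% interval 92.9% to 100%). In 44 cells it exceeded 100 TPM. It was higher than each of the other 9 genes in 39 of 50 cells. Its median level was higher than that of 95.7% of all rows.

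Kit (ENSMUSG00000005672.12; chromosome 5, 75574916 to 75656722, plus strand) was lower, from 0.11 over a median of 40.8 to 208 TPM. It passed TPM 1 in 47 cells (94%, 95% interval 83.5% to 98.7%). The 3 cells at or below TPM 1 were 3-4 (0.34 TPM), 4-6 (0.46) and 4-14 (0.11), and each of them still carried Procr. Procr was higher than Kit in 47 of 50 cells. Among the 47 cells with Kit, the ratio of Procr to Kit had a median of 6.87 and spread from 0.079 to 109, so the transcripts of both sort proteins varied widely against each other. Spearman's rho between them was 0.27 over 50 cells, and from -0.12 to 0.62 within the 4 first title numbers.

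To show the start regions of broadly present, rarely present and unseen receptor genes side by side, 300 bases around the RefSeq start (250 before and 50 after, GRCm38.p6) are given for Procr, Kit, Epor and Flt3. Capitals mark matches on either strand to 3 short motifs. The first, TGTGGT, is a core that Runx factors bind on DNA. Gata factors, which act in blood and endothelium, are represented by the letters AGATAA. For Ets factors, a large family with many members in endothelial cells, the letters searched were CGGAAG. No matches overlapped each other in these windows.
Procr (chr2:155750967-155751266, plus strand): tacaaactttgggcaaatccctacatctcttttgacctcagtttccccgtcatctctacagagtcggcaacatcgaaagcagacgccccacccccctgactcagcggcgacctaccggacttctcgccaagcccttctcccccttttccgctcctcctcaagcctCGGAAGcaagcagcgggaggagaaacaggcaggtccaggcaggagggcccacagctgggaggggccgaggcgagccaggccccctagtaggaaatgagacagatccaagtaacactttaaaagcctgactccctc
Kit (chr5:75574737-75575036, plus strand): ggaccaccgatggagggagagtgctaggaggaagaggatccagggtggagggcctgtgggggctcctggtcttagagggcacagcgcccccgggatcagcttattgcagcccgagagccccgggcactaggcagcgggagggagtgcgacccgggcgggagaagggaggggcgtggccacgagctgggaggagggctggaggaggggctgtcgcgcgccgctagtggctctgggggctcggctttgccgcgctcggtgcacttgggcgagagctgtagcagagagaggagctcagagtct
Epor (chr9:21963527-21963826, minus strand): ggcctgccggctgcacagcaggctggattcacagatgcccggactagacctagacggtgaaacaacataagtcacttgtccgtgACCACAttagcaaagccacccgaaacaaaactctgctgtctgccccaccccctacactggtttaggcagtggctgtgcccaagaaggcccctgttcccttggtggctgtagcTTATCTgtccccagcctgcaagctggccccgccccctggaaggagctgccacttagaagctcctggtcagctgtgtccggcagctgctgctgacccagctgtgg
Flt3 (chr5:147400440-147400739, minus strand): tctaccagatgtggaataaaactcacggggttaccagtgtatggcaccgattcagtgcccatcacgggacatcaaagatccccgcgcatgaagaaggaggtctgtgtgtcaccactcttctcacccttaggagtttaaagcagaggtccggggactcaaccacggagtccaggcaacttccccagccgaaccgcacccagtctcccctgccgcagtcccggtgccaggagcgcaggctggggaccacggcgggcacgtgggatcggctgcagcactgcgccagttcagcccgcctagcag

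A start region was found for 8 of the 10 genes. Of 27025 such regions, 1 per gene, 16.9% held the Runx motif, 11.4% the Gata motif and 17.2% the Ets motif. Among the 8, Procr held 1 Ets match at 85 bases before the start, Tnfrsf1a held 2, and Epor held 1 Runx match at 166 and 1 Gata match at 54 bases before the start. The regions of Kit, Flt3, Il3ra, Il6st and Ifngr1 held none of the 3 letter strings. A match is a description of the sequence only, and its absence says only that these letters are not in the window.

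Next, the receptor for IL-3 was examined, since the culture medium held this cytokine. Csf2rb, the shared signalling chain (ENSMUSG00000071713.6; chromosome 15, 78325752 to 78353847, plus strand), was above TPM 1 in 49 of 50 cells (98%, 89.4% to 99.9%). Its level ran from 0.67 TPM in cell 1-8, over a median of 131, to 458 TPM, and 31 cells exceeded 100 TPM. Il3ra, the IL-3 binding chain (ENSMUSG00000068758.8; chromosome 14, 14346275 to 14356011, plus strand), was much lower, with a median of 2.46 and a maximum of 53.6 TPM. It was above TPM 1 in 31 cells (62%, 47.2% to 75.3%) and listed at 0 in the other 19, with no value between. Csf2rb was higher than Il3ra in 49 of 50 cells.

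Csf2rb2, the relative of Csf2rb that serves IL-3 only (chromosome 15, 78282507 to 78305721, minus strand), had a median of 16.6 TPM and was present in 43 cells (86%). Csf2rb was higher than Csf2rb2 in 45 cells and lower in 5, and at least 1 of the pair was present in 50 of 50 cells. These genes are close copies. Their coding sequences, of 2688 bases for Csf2rb and 2634 for Csf2rb2, were identical in 95.2% of 2628 aligned positions, with an unbroken identical run of 242 bases. Of all windows of 50 bases in the coding sequence of Csf2rb, 26% occurred whole in Csf2rb2, and of windows of 100 bases 11.0% did. How reads that fit both genes were shared out is not given in the sources used here, so the split of level between them, and with it the presence of each, is uncertain. The stretch of 120 coding bases in which they differ most, coding bases 309 to 428 of Csf2rb and 312 to 431 of Csf2rb2, shows where reads can be told apart; the 22 differing bases are in capitals.
Csf2rb (chr15:78338898-78340471, plus strand, intron removed): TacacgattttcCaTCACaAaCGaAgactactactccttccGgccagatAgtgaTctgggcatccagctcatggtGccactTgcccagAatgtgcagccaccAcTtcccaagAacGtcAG
Csf2rb2 (chr15:78292838-78294433, minus strand, intron removed): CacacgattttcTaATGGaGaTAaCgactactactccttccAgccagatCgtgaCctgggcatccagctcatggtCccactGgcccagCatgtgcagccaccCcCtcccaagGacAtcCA

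Il3ra together with Csf2rb or Csf2rb2 was present in 31 of 50 cells (62%, 95% interval 47.2% to 75.3%), which is every cell with Il3ra. In all 31 of them Kit was present as well. The share lay between 38.5% and 75% across the 4 first title numbers, and 13 cells had Il3ra above 10 TPM. With presence set at TPM above 5 instead of 1, the share fell to 38%. Between Il3ra and the genes counted per cell Spearman's rho was 0.40, where the median over 9104 genes was 0.20, and 3 of the 7 cells with fewer than 5000 genes carried it. The part that the number of measured genes played in the share of Il3ra was not tested. Csf2ra, which pairs with Csf2rb as the receptor for GM-CSF, was above TPM 1 in 24 cells and joined Csf2rb in 23 (46%). Il3ra and Csf2ra occurred together in 15 cells and at least 1 of them in 40. Il5ra, the binding chain for IL-5, did not exceed TPM 1 in any cell, with a highest value of 0.21 TPM.

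The chains for IL-6 differed. Il6st (ENSMUSG00000021756.12; chromosome 13, 112464070 to 112510086, plus strand), the shared chain of the IL-6 family, was above TPM 1 in 27 cells (54%, 39.3% to 68.2%), with a median of 3.46 and a maximum of 64.2 TPM. It was listed at 0 in 17 cells, and 6 more were above 0 without passing TPM 1. Il6ra, the chain that binds IL-6, was above TPM 1 in 6 cells (12%, 4.53% to 24.3%) and reached 15.0 TPM. Both chains were present in 2 of 50 cells (4%, 0.49% to 13.7%), cells 2-2 and 2-18. With every value above 0 counted, the share was 10%, and at TPM above 10 it was 0%. Titles beginning with the number 2 held 5 of the 6 cells with Il6ra, and among the other titles no cell held both chains.

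Other partners of Il6st were more common than Il6ra. Il11ra1, which binds IL-11, had a median of 98.5 TPM, was present in 47 cells (94%) and joined Il6st in 25 cells (50%, 35.5% to 64.5%). Lifr, which binds leukemia inhibitory factor, was present in 17 cells and joined Il6st in 8. Il27ra was present in 8 cells and joined Il6st in 4. At least 1 of these 4 partners was found beside Il6st in 26 of the 27 cells that had Il6st. Transcripts of a chain do not show that the protein is on the surface or that the cell responds.

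Flt3 (ENSMUSG00000042817.15; chromosome 5, 147330741 to 147400489, minus strand), the receptor for the fourth cytokine of the medium, was listed at 0 in all 50 cells. A count of 0 of 50 allows a share of up to 6% by the limit of 3 counts, and the upper bound of the exact interval is 7.11%. Both limits concern cells in which the transcript was detected, not cells that express it. A value of 0 in every cell was seen for 4.34% of all rows. Flt3l, the gene of its ligand, was above TPM 1 in 25 of 50 cells (50%, 35.5% to 64.5%), with a median of 11.7 and a maximum of 179 TPM.

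Counted over the 4 medium cytokines, 29 cells (58%) held complete receptors for 2 of them, which were SCF and IL-3 in every such cell. A further 16 cells (32%) held 1, 2 cells held 3, 3 cells held none and no cell held all 4. The SCF and IL-3 receptors were found together in 31 cells, and joined by the IL-6 receptor in 2. The median per cell was 2 cytokines, and it was 1 with presence set at TPM above 5 or above 10, where the IL-3 receptor was complete in 38% and 26% of cells.

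**Figure D2:**
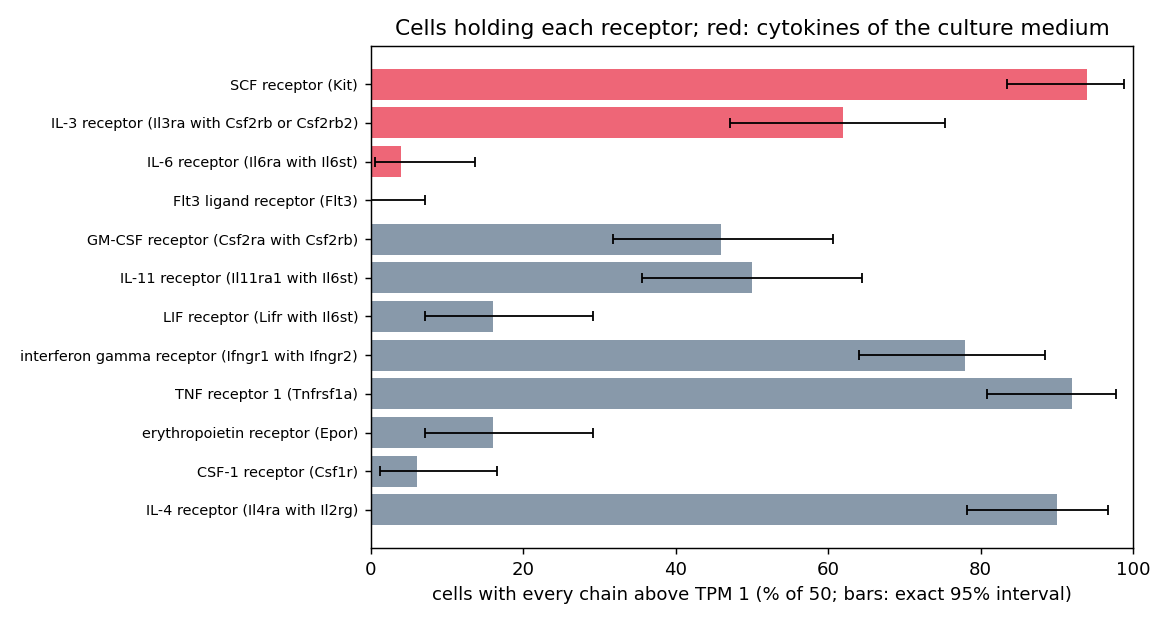
Share of the 50 cells in which every chain of a receptor was above TPM 1, in percent, with exact 95% intervals as black bars; red bars are the cytokines of the culture medium, grey bars others. The SCF receptor was complete in 94% of cells and the IL-3 receptor in 62%, against 4% for IL-6 and 0% for Flt3 ligand.

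Ifngr1 and Tnfrsf1a, which bind inflammatory cytokines, were examined next. Ifngr1 (ENSMUSG00000020009.13; chromosome 10, 19591949 to 19610229, plus strand) was above TPM 1 in 47 cells (94%, 83.5% to 98.7%). Its level ran from 0.22 over a median of 116 to 585 TPM, and the 3 cells at or below TPM 1 were 1-4, 4-1 and 4-14. Ifngr2, the second chain that the interferon gamma receptor needs, was present in 40 cells (80%) at a median of 42.7 TPM. Both chains were present in 39 cells (78%, 64.0% to 88.5%). The rho between their levels was 0.34 over 50 cells.

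Tnfrsf1a (ENSMUSG00000030341.17; chromosome 6, 125349362 to 125362484, plus strand) was above TPM 1 in 46 cells (92%, 80.8% to 97.8%), from 0 in cells 3-2 and 4-6, over a median of 104, to 952 TPM. Its highest value was 9.20 times its median. Tnfrsf1b, the other receptor for tumor necrosis factor, was present in only 6 of the 50 cells (12%), and beside Tnfrsf1a in 4. Its highest value, 124 TPM, was in cell 4-6, where Tnfrsf1a was listed at 0. That cell had the fewest genes above TPM 1 (2400), so little is read from it. Ltbr, the lymphotoxin beta receptor of the same family, was present in 45 cells at a median of 49.4 TPM.

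Receptors of committed lineages were rare. Epor (ENSMUSG00000006235.6; chromosome 9, 21958897 to 21963506, minus strand), which binds erythropoietin, passed TPM 1 in 8 cells (16%, 7.17% to 29.1%). The 8 values were 10.5, 15.2, 17.2, 45.1, 45.1, 61.1, 84.3 and 129 TPM, so each was well above the level for presence. The share ran from 7.14% to 33.3% across the 4 first title numbers, and it was 10.5% without number 4, which held 4 of the 8 cells. Of these cells all 8 also had Il3ra, which was present in 31 of all 50 cells, and 7 had Il6st, which was present in 27. The cell with Epor but without Il6st above TPM 1, cell 1-11, had 0.65 TPM of Il6st. The genes counted per cell gave a rho of 0.28 with Epor and 0.40 with Il3ra, and their part in the joint presence was not tested.

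Erythroid cells were looked for beside Epor. Of 12 erythroid markers, 6 had a row, and none of these was present in more than 4 cells. Gata1, the defining factor of the lineage, was listed at 0 in all cells. The summed level of the 6 ran from 0 to 1714 TPM with a median of 0. Any globin row was present in 7 cells, and in 1 of the 8 cells with Epor, cell 2-18. Itga2b (CD41), which the sort took at a low level, was present in 7 of the 8 cells with Epor and in 40 of all 50 cells.

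Csf1r (ENSMUSG00000024621.16), the receptor for CSF-1 on monocytes and macrophages, was above TPM 1 in 3 cells (6%, 1.25% to 16.5%), at 27.2 TPM in cell 2-6, 50.3 in cell 3-11 and 80.7 in cell 4-7. None of the 3 cells carried Epor, and with 3 and 8 cells among 50 nothing is read from this count. Sfpi1 (Spi1, the myeloid factor PU.1) was present in 2 of the 3, at 486 TPM in cell 2-6 and 353 in cell 4-7, and in 24 of 50 cells in all. Fcer1g, an adaptor of immune receptors, was at 2042 and 1213 TPM in the same cells. In cell 3-11 Sfpi1 was listed at 0 and Fcer1g was at 32.9 TPM. Fcer1g was present in 41 of all 50 cells, and its highest value, 2066 TPM, was in cell 1-4, where Csf1r was listed at 0. The highest value of Sfpi1, 3843 TPM, was in cell 4-6, where Csf1r was also listed at 0. Of 12 myeloid markers, 11 had a row and 3 were present in at least 50% of cells, beside 53.2% of all rows. Fcgr3 (49.7), Fcer1g (25.2) and Tyrobp (2.31) had the highest median TPM, while Itgam and Elane were listed at 0 in all cells. The summed myeloid level ran from 0.95 to 5745 TPM.

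The 10 genes were then ordered by median level: Procr (314 TPM), Csf2rb (131), Ifngr1 (116), Tnfrsf1a (104), Kit (40.8), Il6st (3.46), Il3ra (2.46), and Epor, Csf1r and Flt3 at 0. The step from Procr to Csf2rb was seen in 43 of 50 cells. Csf2rb was above Ifngr1 in 25 cells and below it in 25, and Ifngr1 was above Tnfrsf1a in 28 cells and below it in 22, so these 3 neighbors were not set apart from each other. Tnfrsf1a was above Kit in 35 cells, and Kit was above Il6st in 44. Il6st was above Il3ra in 23 cells and below it in 19, with the rest at 0 for both. Among the 5 broad genes, Procr had the smallest SD of log2(TPM + 1), 1.5, and Tnfrsf1a had the largest, 2.27.

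Per cell, the number of the 10 genes above TPM 1 had a median of 6 and ran from 3 to 8. There were 6 in 19 cells, 7 in 13 cells and 8 in 6 cells. Kit, Procr, Csf2rb, Ifngr1 and Tnfrsf1a were present together in 41 cells (82%, 68.6% to 91.4%). The cells fell into 18 combinations, and 13 of these occurred in 1 cell each. The most frequent ones added to these 5 genes Il3ra alone (9 cells), Il6st with Il3ra (9), Il6st alone (8), Epor with both (6) or nothing (5). Il3ra and Il6st, the genes that split the cells, occurred together in 17 cells, Il3ra without Il6st in 14, Il6st without Il3ra in 10 and neither in 9. Cells with more genes in all also held more of the 10, with a rho of 0.50, and cell 4-6 with the fewest genes was the cell with the fewest of the 10.

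**Figure D3:**
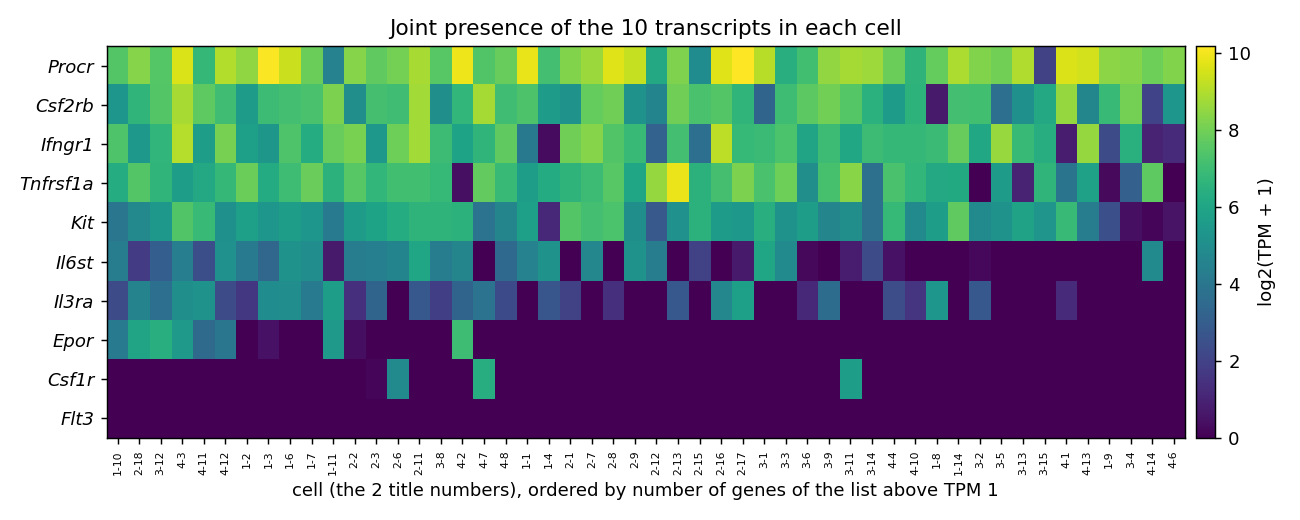
Level of the 10 receptor genes (rows) in each of the 50 cells (columns, named by their 2 title numbers) as log2(TPM + 1), with cells ordered by how many of the 10 are above TPM 1. The 8 cells with Epor lie in columns that also show Il3ra, the 3 cells with Csf1r are other cells, and Flt3 is empty.

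Levels were compared from cell to cell for the 7 genes present in at least 20% of cells. Over their 21 pairs the median rho was 0.09, from -0.12 (Procr with Tnfrsf1a) to 0.32 (Csf2rb with Il3ra), and 18 pairs were above 0. Over all pairs of the 9104 genes at that share the median was 0.04 and the central 95% ran from -0.26 to 0.34. The 21 pairs thus lay within the range of gene pairs at large. The points share libraries and the number of genes per cell. Given that number, the median over the 21 pairs was also 0.09. The part that shared libraries played was not tested.

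**Figure D4:**
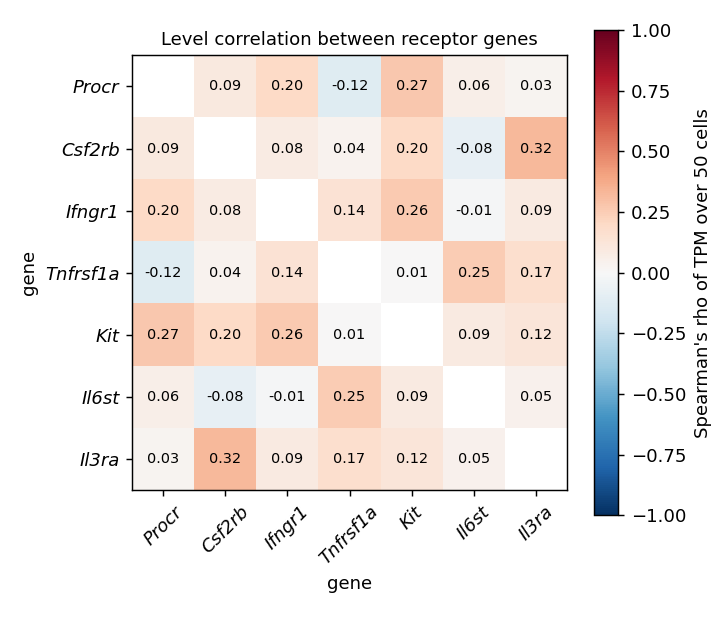
Spearman's rho of TPM over 50 cells for each pair of the 7 receptor genes found in 20% of cells or more, on a color scale from -1 to 1. All pairs lie between -0.12 and 0.32.

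For each of these 7 genes, the 3 genes with the most similar level from cell to cell were found among the 9104. They were Zfp281, Trove2 and Ktn1 for Kit, Sike1, Nrk and Whamm for Procr, and Lilrb4, Ctgf and Ctsl for Csf2rb. For Il6st they were Nt5e, Sap30bp and Ube2j1, for Il3ra Slain2, Arhgef17 and Mtor, for Ifngr1 Anapc16, Lrrc8a and Smad1, and for Tnfrsf1a they included Tax1bp1 and Ankmy2. The best rho was 0.63 for Il3ra with Slain2 and 0.61 for Ifngr1 with Anapc16. For Kit, Procr, Csf2rb and Il6st it lay between 0.50 and 0.52, below the median best rho of 0.57 over all 9104 genes. For Ifngr1 with Anapc16 it was -0.25 within 1 first title number.

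Ligands of these receptors were mostly low. Of 16 ligand genes, 6 had a row and 1, Flt3l, was present in at least 50% of cells, beside 53.2% of all rows. Kitl, the gene of SCF, was above TPM 1 in 13 cells (26%, 14.6% to 40.3%) with a highest value of 105 TPM, and 12 of these cells had Kit. Csf1 was present in 5 cells, in 1 of them beside Csf1r. Osm was present in 2 cells, Il6 in 1 (120 TPM) and Tnf in 1 (53.7 TPM).

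Genes that act with Procr in the protein C pathway were examined next. Of 10 such genes, 7 had a row and 4 were present in at least 90% of cells, beside 19% of all rows. F2r (PAR1), through which protein C bound to Procr signals, had a median of 578 TPM and was present in 50 of 50 cells. S1pr1, a sphingosine receptor, was also present in 50 cells, at a median of 245. Tfpi (272 TPM) and Pros1 (134), which restrain clotting, were present in 49 and 48 cells. F2rl3 was present in 28 cells and F2rl2 in 4. Thbd (thrombomodulin), which serves the activation of protein C, was present in 12 cells (24%, 13.1% to 38.2%).

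Downstream of the receptors, 9 of 11 Jak and Stat genes were present in at least 50% of cells, beside 53.2% of all rows, with Stat3 (71.0), Jak1 (67.0) and Stat6 (50.9) at the highest median TPM. Stat3 was present in 50 cells and Jak1 in 49. Jak2, the kinase that Epor, Csf2rb and Ifngr2 use, had a median of 0.24 TPM and was found in 22 cells (44%, 30% to 58.7%). Jak2 was thus found in 14 of the 31 cells with the IL-3 receptor and in 5 of the 8 with Epor. Stat5a or Stat5b was present in 39 cells, and 10 cells (20%) held the IL-3 receptor together with Jak2 and either of them. The interferon gamma receptor came with Jak1 in all 39 of its cells. Il6st came with Jak1 and Stat3 in all 27 of its cells.

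The relay below receptor tyrosine kinases carries the signal of Kit through Ras, MAP kinases and Akt. Of 25 genes 24 had a row, 18 were present in at least 50% of cells and 10 in at least 90%, beside 53.2% and 19% of all rows. Akt1 (155), Mapk3 (136) and Map2k1 (129) had the highest median TPM. Of 15 genes of the Tnf receptor relay, 9 were present in at least 50% of cells, beside 53.2% of all rows, and 1 in at least 90%, beside 19% of all rows. Casp8 (58.0), Rela (52.8) and Nfkb1 (21.7) had the highest median TPM. The adaptors Tradd and Ripk1 were each found beside Tnfrsf1a in 27 of its 46 cells.

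Of 20 negative regulators, 14 were present in at least 50% of cells, beside 53.2% of all rows. Socs2 (109), Cish (86.4) and Pias4 (67.2) had the highest median TPM. Socs2 and Cish, which Stat5 is known to induce and which restrain cytokine signalling, were present together in 42 cells (84%, 70.9% to 92.8%). Of 22 known targets of cytokine signalling, 12 were present in at least 50% of cells, a share near the 53.2% of all rows at that level. Ccnd3, a cyclin of the early cell cycle, had a median of 1007 TPM and Nfkbia, the inhibitor of NF-kB, of 272, and both were present in 50 cells, followed by Socs2. No untreated cells were measured, so these levels cannot be set against a state without cytokines.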

How the data were processed

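Single iRunx1-iHECs were measured by RNA-seq after whole-transcriptome amplification, without molecular identifiers named. The authors aligned reads to mm10 with HISAT2 2.1.0 and estimated TPM with StringTie 1.3.4. The deposited TPM summed to between 942975 and 970894 per cell over the 11879 rows, and the rule for keeping rows is not given in the sources used here. All 50 columns matched 1 title each, and none were identical. No cell was left out and no doublet caller was run. TPM keeps no depth, so depth per cell is unknown. What the 2 title numbers stand for is not given in the sources used here, and the sources name 2 different sequencers.

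The 10 genes and all gene lists were chosen with earlier results of these data known. List genes named are all partner chains, ligands and protein C genes with a row, and of other lists the 3 highest medians and rows at 0 in all cells. Other names (such as Jak2, Stat5a, Stat5b, Tradd, Ripk1, Il4ra, Jak3 and Csf3r) and joint sets with Jak or Stat genes were chosen after their values were seen. List genes without a row were not analysed here, and some results are not reported here.

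Shares have exact Clopper-Pearson 95% intervals, which cover counting error over cells only. Spearman's rho is given without p. The rho code was checked on simulated data. Gene positions are from GENCODE M21 (GRCm38, the assembly named mm10), start regions are from RefSeq (GRCm38.p6), and coding sequences, from GENCODE M21, were aligned globally. Python 3.11.15, pandas 2.3.3 and SciPy 1.17.1 were used. Alternatives were presence at TPM above 0, 5 or 10, each first title number left out, 7 cells with fewer than 5000 genes left out, TPM rescaled without 85 ribosomal protein rows, and a pseudocount of 0.1.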

Additional observations from a re-analysis of the deposited data

How the results depend on the processing

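Shares were compared with their exact 95% intervals, counts with a factor of 1.5, and the median rho with the SD of its 4 values by first title number, 0.084. With every value above 0 counted, the shares of Kit, Csf2rb, Ifngr1 and of Kit with Procr rose to 100%. At TPM above 5 the shares of Il3ra and of both IL-3 receptor chains fell to 38%, and at TPM above 10 to 26%. At both levels the median number of medium cytokines with a complete receptor was 1. Both IL-6 chains were found in 0% of cells at TPM above 10 and without first title number 2, and Csf2rb was found in 100% without first title number 1. A higher or lower level by construction counts fewer or more values; the cause of the other changes was not tested. Leaving out first title number 3 or 4, leaving out the 7 cells with few genes and rescaling TPM each kept all 18 main results within these limits, with Epor at 10.5% without number 4. The mean log2 value of Epor, Csf1r and Flt3 moved by more than its SD with a pseudocount of 0.1. No paired analysis was possible because all cells belonged to 1 group. With TPM alone, a transcript missed in a cell cannot be told apart from a gene that was off.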

Other observations

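Other blood cytokine receptors were looked at in the same cells. Of 22 listed, 18 had a row, 8 were present in at least 50% of cells, beside 53.2% of all rows, and 2 in at least 90%, beside 19%. Il2rg, the common gamma chain shared by the receptors of IL-2, IL-4, IL-7 and IL-15, was present in 50 of 50 cells. Its median of 306 TPM was near the 314 TPM of Procr. Of its partner chains, Il7r, Il2ra and Il2rb had no row, and Il15ra was present in 12 cells (24%). Ifnar2 (75.8) and Il10rb (53.6) had the next highest median TPM. Il4ra, which pairs with Il2rg, was present in 45 cells (90%, 95% interval 78.2% to 96.7%), and both chains came with Jak3 and Stat6 in 35 cells (70%, 55.4% to 82.1%). Both chains of the type I interferon receptor, Ifnar1 and Ifnar2, were present in 37 cells (74%). Csf3r was present in 3 cells, and Il21r, Il10ra and Tnfrsf11a in 1 cell each.

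Markers of further cell types were mostly low. Of 10 megakaryocyte markers 8 had a row and 3 were present in at least 50% of cells, beside 53.2% of all rows. Itga2b (43), Itgb3 (40.5) and Vwf (8.12) had the highest median TPM, and Ppbp was at 0 in all cells. Of 7 mast cell markers 3 had a row. Only Gata2, which blood progenitors also express, was present in at least 50% of cells, beside 53.2% of all rows. Hdc was present in 2 cells and Cpa3 in none. Of 10 mesenchymal markers 6 had a row, none was present in more than 4 cells, Pdgfrb and Col3a1 were at 0 in all, and their summed level did not exceed 26.2 TPM. Of 8 pluripotent markers 1 had a row, Klf4, which was present in 12 cells.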
